A study of Mus musculus with 14 samples.

Results

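mmu-miR-377 and mmu-miR-539 (miR-377 and miR-539) are 2 microRNAs (miRNAs) made from the imprinted Dlk1-Dio3 region of mouse chromosome 12, and their amounts in plasma extracellular vesicles (EVs) are described here after whole-body irradiation (WBIR). They are 2 of the 626 probes, and 2 of the 566 mouse miRNA probes, of a NanoString nCounter mouse miRNA panel. Each has 1 row in the table, and neither row name states a 5p or 3p arm. Both were chosen by the rise of their counts over sham, so that rise itself is given below as a description with no test. The 9 Gy against 2 Gy contrast played no part in that choice and was tested.

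The samples were plasma EVs from C57BL/6J mice. There were 4 samples from sham mice, 5 from mice given 2 Gy and 5 from mice given 9 Gy of WBIR from a Cesium-137 source, with EVs collected 3 days after exposure. The study's methods describe the mice as female and the sham mice as uninjured. EVs were the pellet of a last centrifugation of cleared plasma, with no further step described to part vesicles from other particles of the pellet. The labels do not say whether each sample came from 1 mouse, so p-values measure only the spread between these samples. In such bulk samples, fewer vesicles that carry a miRNA and less of that miRNA in each vesicle cannot be told apart.

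A miRNA is cut from a hairpin precursor and guides an Argonaute protein to messenger RNAs that pair with its seed, bases 2 to 8 of the mature strand. Dlk1-Dio3 is an imprinted region in which coding genes such as Dlk1 and Dio3 are expressed from the paternal chromosome, and the noncoding RNAs and miRNAs from the maternal one. Its miR-379/miR-410 cluster, one of the largest miRNA clusters of mammals, is known for expression in brain and in the embryo and placenta.

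The mature sequences are shown, with the seed in capitals, because neither row name states which strand its probe reads. They were taken from RefSeq (GRCm38.p6), where both row names matched a hairpin gene. That source listed 2 mature strands for Mir377 but only 1, the 5p strand, for Mir539. A 3p strand of miR-539 is therefore neither shown nor compared here.
mmu-miR-539-5p: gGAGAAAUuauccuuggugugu
mmu-miR-377-5p: aGAGGUUGcccuuggugaauuc
mmu-miR-377-3p: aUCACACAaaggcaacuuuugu
The 3 strands are each 22 bases long and lie on the plus strand of chr12:109728136-109728157, chr12:109740515-109740536 and chr12:109740553-109740574 in the order shown. No seed was shared among them. The seed of miR-377-5p was also that of mmu-miR-672-5p, and no other mature sequence of the table had the seed of miR-539-5p or of miR-377-3p. The G and C content was 40.9%, 50.0% and 36.4% in the same order.

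Their hairpins are shown with the mature strands in capitals, to place both miRNAs in the cluster.
Mir539: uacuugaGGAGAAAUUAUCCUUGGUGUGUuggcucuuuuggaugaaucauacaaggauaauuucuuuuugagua
Mir377: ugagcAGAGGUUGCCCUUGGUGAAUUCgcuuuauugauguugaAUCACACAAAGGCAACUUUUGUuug
Mir539 spans 74 bases at chr12:109728129-109728202 and Mir377 spans 68 bases at chr12:109740510-109740577, both on the plus strand, with 12307 bases between them. Both are noncoding RNA genes. Mir539 was the 24th and Mir377 the 33rd of the 39 miRNA genes of the cluster, counted from Mir379. The start of Mir377 lies inside the RefSeq span of the long noncoding RNA gene Mirg, and that of Mir539 lies outside it.

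Apart from the seeds, the 5p strands share a run of 8 letters, CCUUGGUG, shown here in capitals.
mmu-miR-539-5p: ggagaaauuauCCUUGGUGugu
mmu-miR-377-5p: agagguugcCCUUGGUGaauuc
This run was read on the mature strand only and was found in 2 of 1674 distinct mature sequences of the table (0.119%), these 2 alone. The longest run that miR-539-5p shares with miR-377-3p was AAA. A match of letters is a description of these strands and not a shared target.

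In sham, both miRNAs sat at the level of the negative controls, which are probes with no target in the sample. The miR-377 count was 12, 11, 10 and 8 in the 4 sham samples, against 110, 53, 41, 43 and 50 at 2 Gy and 69, 66, 52, 75 and 88 at 9 Gy (replicates in order). The lowest irradiated sample was thus above the highest sham sample at either dose. The miR-539 count was 8, 14, 13 and 9 in sham, 76, 62, 57, 69 and 63 at 2 Gy, and 95, 91, 79, 106 and 159 at 9 Gy. Again the sham samples and the irradiated samples did not overlap. A lack of overlap with higher counts was found in 9.66% of the 176 tested probes at 2 Gy and in 15.3% at 9 Gy, and nothing is read from it here because the rise chose both miRNAs.

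The mean miR-377 count was 10.25 ± 1.71 in the 4 sham samples, against 59.4 ± 28.7 in the 5 samples at 2 Gy and 70.0 ± 13.1 in the 5 at 9 Gy (± SD). miR-539 had 11 ± 2.94, 65.4 ± 7.30 and 106 ± 31.2 counts in the same order (± SD). A single 2 Gy sample, replicate 1 with 110 counts, accounts for the wide spread of miR-377 at that dose, and a single 9 Gy sample, replicate 5 with 159 counts, for that of miR-539 at 9 Gy. Counting error alone would give a coefficient of variation of 13.0% for miR-377 at 2 Gy, where 48.3% was measured, and of 9.71% for miR-539 at 9 Gy, where 29.4% was measured. At the other dose the measured spread of miR-539 was 11.2% against a counting error of 12.4%.

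**Figure D1:**
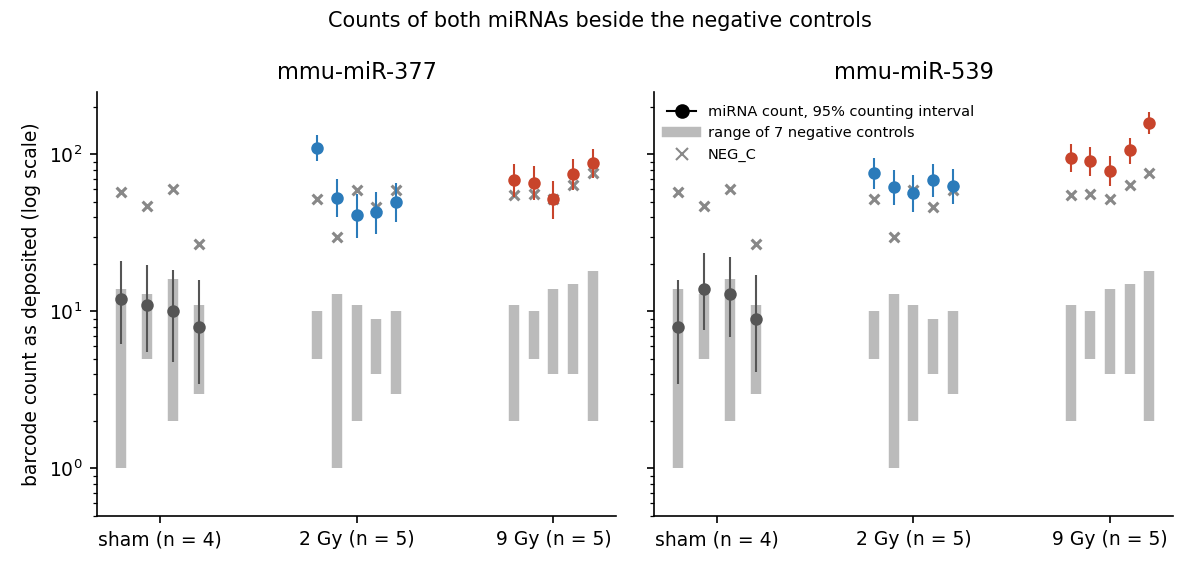
Counts as deposited (log axis) of miR-377 and miR-539 in each sample, as points with 95% exact Poisson intervals that cover counting error only, beside the range of 7 negative controls (grey bars) and NEG_C (crosses). Each sham point lies in or next to the grey bar of its own sample, and each irradiated point lies above it, while NEG_C sits near the irradiated miR-377 points.

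Background could be set in more than 1 way, since the 8 negative controls were not alike. The group mean of the median negative control was 8.0 counts for sham and 7.6 and 7.4 for the lower and the higher dose, whereas the control NEG_C alone had 48.0 ± 15.1, 49.2 ± 12 and 60.6 ± 9.69 counts (SD). Above the highest of the other 7 controls of the same sample lay miR-377 in 0 of 4 sham samples and in 5 of 5 samples at either dose. miR-539 exceeded that limit in 1 of 4 sham samples (14 counts against 13) and in 5 of 5 samples at either dose. Set against NEG_C instead, miR-377 was higher in 0 of 4, 2 of 5 and 4 of 5 samples, and miR-539 in 0 of 4, 4 of 5 and 5 of 5. Whether miR-377 at 2 Gy passed the background therefore depended on this control, and miR-539 passed it in most irradiated samples either way.

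After subtraction of each sample's median negative control, with a floor of 1, the sham level was 4, 3, 1 and 1.5 counts for miR-377 and 1, 6, 3.5 and 2.5 for miR-539. The irradiated levels were 51.8 ± 28.6 and 62.6 ± 14.7 counts for miR-377 and 57.8 ± 7.34 and 98.6 ± 32.6 for miR-539 at 2 Gy and 9 Gy (SD, n = 5). The fold over sham rested on these small sham values. As a ratio of geometric means of the deposited counts, miR-377 was 5.45-fold higher at 2 Gy and 6.81-fold at 9 Gy, and miR-539 was 6.08-fold and 9.61-fold higher. With the background subtracted, the same ratios were 22.9 and 29.7 for miR-377 and 21.3 and 35.3 for miR-539. In the edgeR fit, which scales the samples to each other and leaves the background in, the log2 fold change over sham was 2.65 ± 0.26 and 2.56 ± 0.26 for miR-377 and 2.69 ± 0.24 and 3.04 ± 0.24 for miR-539 (SE).

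The ligation positive controls moved with both miRNAs. These LIG_POS probes report synthetic templates that are joined to a tag in the same reaction as the miRNAs. Their geometric mean was 634, 208, 401 and 136 counts in sham, 3121, 2458, 1998, 2148 and 1935 at 2 Gy, and 2810, 2231, 2409, 2337 and 3463 at 9 Gy. No sham sample came near an irradiated one. As ratios of geometric means, the ligation controls were 7.88-fold higher at 2 Gy and 8.98-fold at 9 Gy than sham, while the hybridisation positive controls, which skip the ligation step, were 0.926-fold and 0.989-fold. Ligation yield and the sham group cannot be told apart, since the ligation levels of sham and irradiated samples do not meet.

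Per 1000 ligation counts, the difference from sham depended on how the background was treated. Background-subtracted miR-377 was 6.31, 14.5, 2.50 and 11 in sham, 32.7, 18.7, 16.3, 16.5 and 22.2 at 2 Gy, and 21.7, 26.4, 17.6, 28.9 and 24.0 at 9 Gy. The irradiated samples were all above sham on this scale, with a ratio of geometric means of 2.90 at 2 Gy and 3.31 at 9 Gy. Such a lack of overlap on this scale was found in 1.7% of the tested probes at 2 Gy and 2.84% at 9 Gy, and nothing is read from it, as the rise chose miR-377. Sham replicate 3 is at the floor for miR-377, and without it the miR-377 ratios were 2.05 and 2.34. The ratios of its arithmetic means over all samples were 2.48 and 2.77. Background-subtracted miR-539 was 1.58, 28.9, 8.74 and 18.3 in sham, 21.8, 22.4, 24.3, 28.6 and 28.9 at 2 Gy, and 31.0, 37.7, 28.8, 42.1 and 44.5 at 9 Gy. Here sham replicate 2 reached the irradiated range, so the groups overlapped, with ratios of 2.71 and 3.93. These rested on sham replicate 1, which is at the floor, and without it they were 1.5 and 2.18, while the ratios of arithmetic means over all samples were 1.75 and 2.56. When the counts were scaled to the ligation controls without subtraction of the background, the edgeR log2 fold change over sham was -0.48 ± 0.42 and -0.37 ± 0.41 for miR-377 and -0.46 ± 0.41 and 0.02 ± 0.40 for miR-539 (SE), a scale on which the background is divided by the ligation level too.

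**Figure D2:**
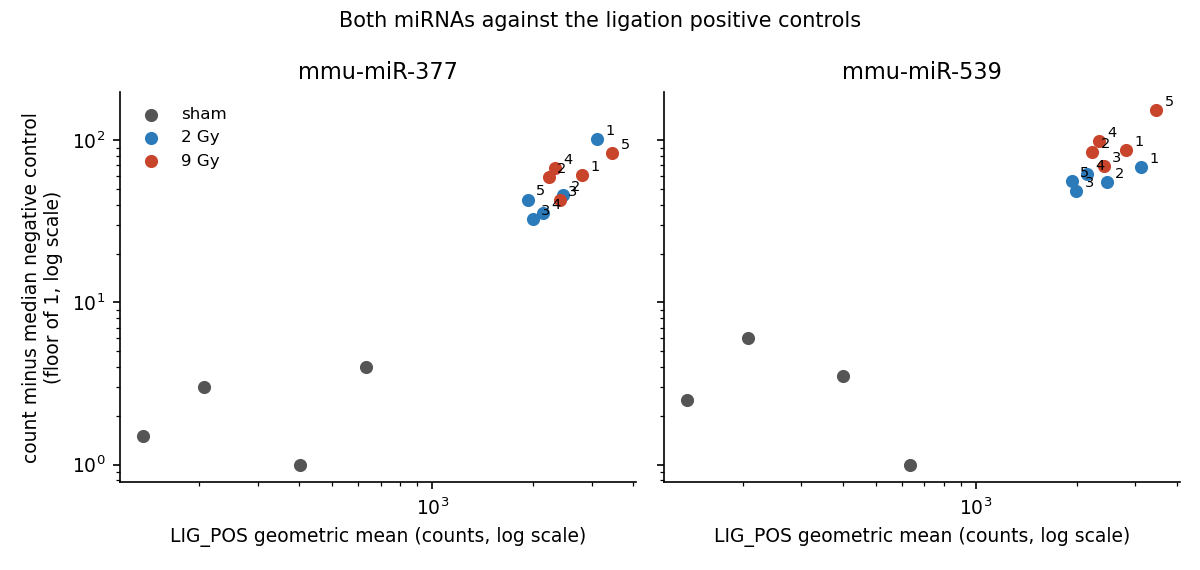
Background-subtracted counts of miR-377 and miR-539 (floor of 1) against the geometric mean of the ligation positive controls, both on log axes, with 1 point per sample and the replicate number beside irradiated points. The 4 sham points stop at 634 ligation counts and the irradiated points start at 1935, so no ligation level is shared, and the sham miRNA values are at or near the background.

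Within the irradiated samples, ligation spanned 1.79-fold, and its relation to both miRNAs could be examined with the dose means removed. Over the 10 samples, log2 miR-377 followed log2 ligation with Pearson's r 0.791 (permutation p 0.0136) and Spearman's rho 0.648 (permutation p 0.0592). log2 miR-539 followed it with r 0.707 (permutation p 0.0245) and rho 0.527 (permutation p 0.135). miR-377 and miR-539 followed each other with r 0.670 (permutation p 0.00721) and rho 0.709 (permutation p 0.0268). These were 3 relations, with Benjamini-Hochberg adjusted p of 0.0203, 0.0245 and 0.0203 for r in that order. Without the 2 samples farthest from the median of ligation, 9 Gy replicate 5 and 2 Gy replicate 1, r with ligation was 0.249 for miR-377 (permutation p 0.565) and 0.102 for miR-539 (permutation p 0.828). Both relations to ligation thus rested on these samples. Without the 2 samples farthest from the median of miR-377, 2 Gy replicates 1 and 3, r between both miRNAs was 0.806 (permutation p 0.0900). Spearman's rho was 0.571 there (permutation p 0.174). The size of r thus held while its p did not, and rho was lower than over the 10 samples.

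The comparison of 9 Gy with 2 Gy asked whether either miRNA follows dose. For miR-377, scaled counts averaged 65.3 ± 28.2 at the lower dose and 61.7 ± 9.78 at the higher (SD, n = 5 each), a log2 fold change of -0.08 ± 0.20 (SE) with an adjusted p of 0.972 by edgeR's quasi-likelihood test over the 176 probes. The 95% interval of that fold ran from 0.697 to 1.28. For miR-539, scaled counts were 72.7 ± 8.13 and 92.6 ± 19.6 (SD, n = 5), a log2 fold change of 0.35 ± 0.18 (SE) with an adjusted p of 0.513 by the same test, and a 95% interval of the fold from 0.963 to 1.68. Neither miRNA passed the threshold, and both intervals allow a moderate difference. Of all tested probes, 0.0% passed in this contrast. Without adjustment, 20 probes had a p under 0.05, and DESeq2 and limma-voom called 1 each.

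Leaving out 2 Gy replicate 1 turned the miR-377 value to 0.22 (adjusted p 0.683), and 3 other scalings or background settings that keep this sample also gave values above 0, from 0.01 to 0.15. The deposited miR-539 counts did not overlap between doses (79 at the lowest 9 Gy sample, 76 at the highest 2 Gy sample), which held with higher counts at 9 Gy for 5.68% of tested probes. The total over miRNA probes was itself 1.55-fold higher at 9 Gy (ratio of geometric means), and after scaling the miR-539 samples overlapped. A large part of that total was 1 probe, miR-376a. Its mean count was 2817 at 2 Gy and 6414 at 9 Gy, beside mean totals of 9046 and 14276.

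**Figure D3:**
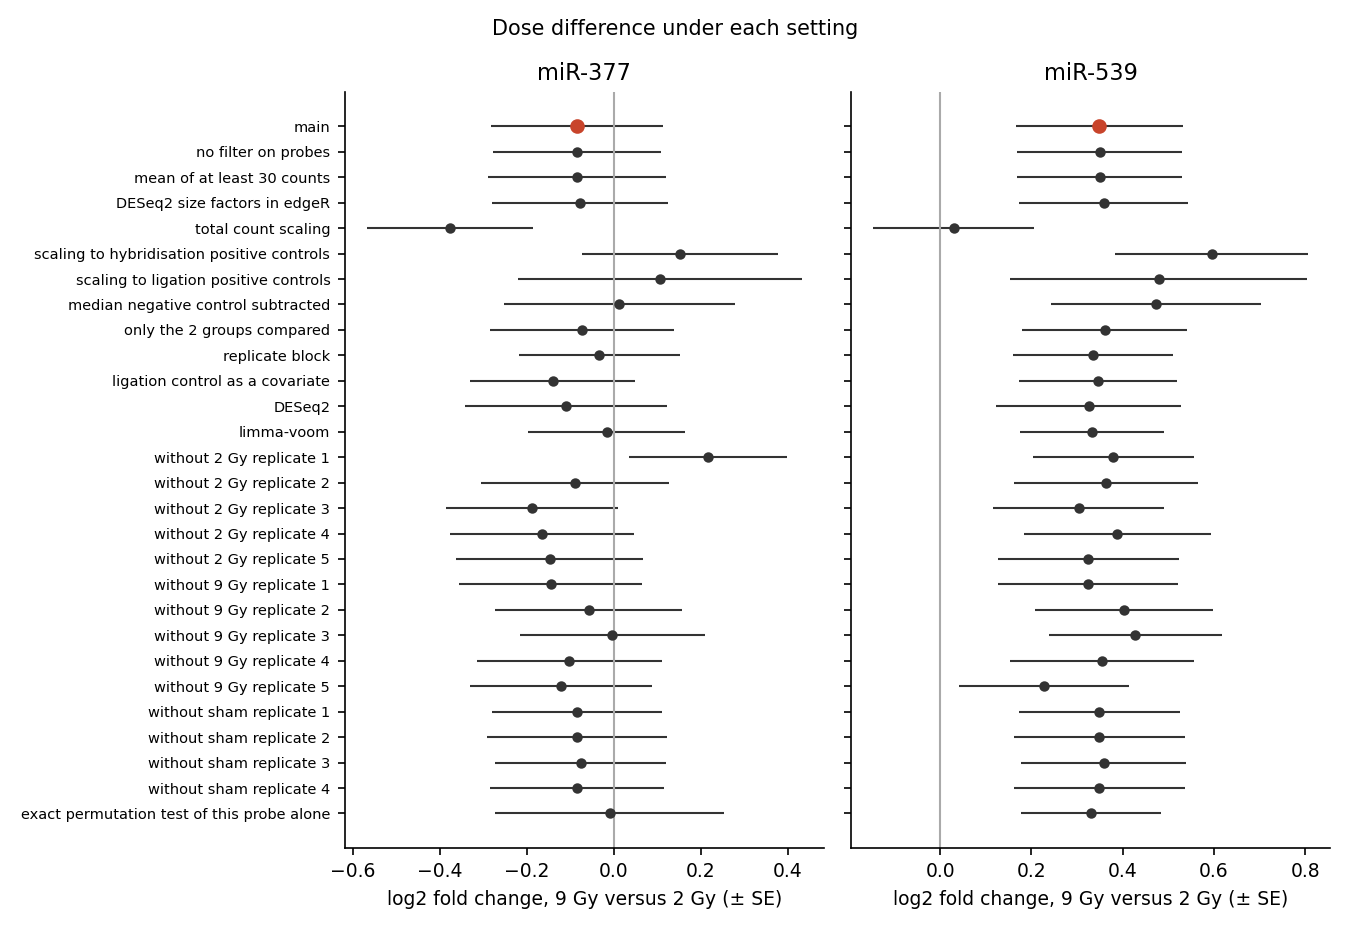
The log2 fold change of 9 Gy over 2 Gy for miR-377 and miR-539, with bars of 1 SE, as reported (red, top row) and under each other setting, which are other filters, scalings, models and single samples left out. The miR-377 values lie on both sides of 0, and the miR-539 values all lie above 0, closest to it under total count scaling at 0.03.

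Ratios that need no library scaling were compared by exact permutation tests, two-sided, with 5 samples a dose, for which the smallest possible p is 0.00794. There were 3 such tests, and p-values were adjusted over them by the Benjamini-Hochberg method. The ratio of background-subtracted miR-377 to miR-539 was 0.870 ± 0.365 at 2 Gy and 0.648 ± 0.0714 at 9 Gy (SD), with a log2 difference of -0.35 ± 0.25 (SE) and an exact p of 0.167 (adjusted 0.25). Per 1000 ligation counts, miR-377 was 21.3 ± 6.80 and 23.7 ± 4.33 (SD), a ratio of geometric means of 1.14 with an exact p of 0.405 (adjusted 0.405). On the same scale miR-539 was 25.2 ± 3.40 and 36.8 ± 6.81 (SD), a ratio of 1.45 with an exact p of 0.0159 (adjusted 0.0476). With 1 sample left out the adjusted exact p was 0.0952 in 8 of 10 cases and 0.0476 in the other 2, without 2 Gy replicate 5 and without 9 Gy replicate 3. The log2 difference then ran from 0.46 to 0.62, and with 5 against 4 samples the smallest possible exact p is 0.0159. Among all tested probes the log2 difference of miR-539 ranked 91 of 176 with the background subtracted and 33 of 176 without. With subtraction, 15.9% of the 176 tested probes were higher at 9 Gy with an exact p under 0.05, the adjusted p of miR-539 over all of them was 0.186, and the median tested probe had a log2 difference of 0.58 against 0.54 for miR-539. Without subtraction the log2 difference of miR-539 was 0.47 (exact p 0.00794, the smallest possible, adjusted p 0.127 over the tested probes) beside a median of 0.18, and 9.66% of probes were higher with an exact p under 0.05.

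**Figure D4:**
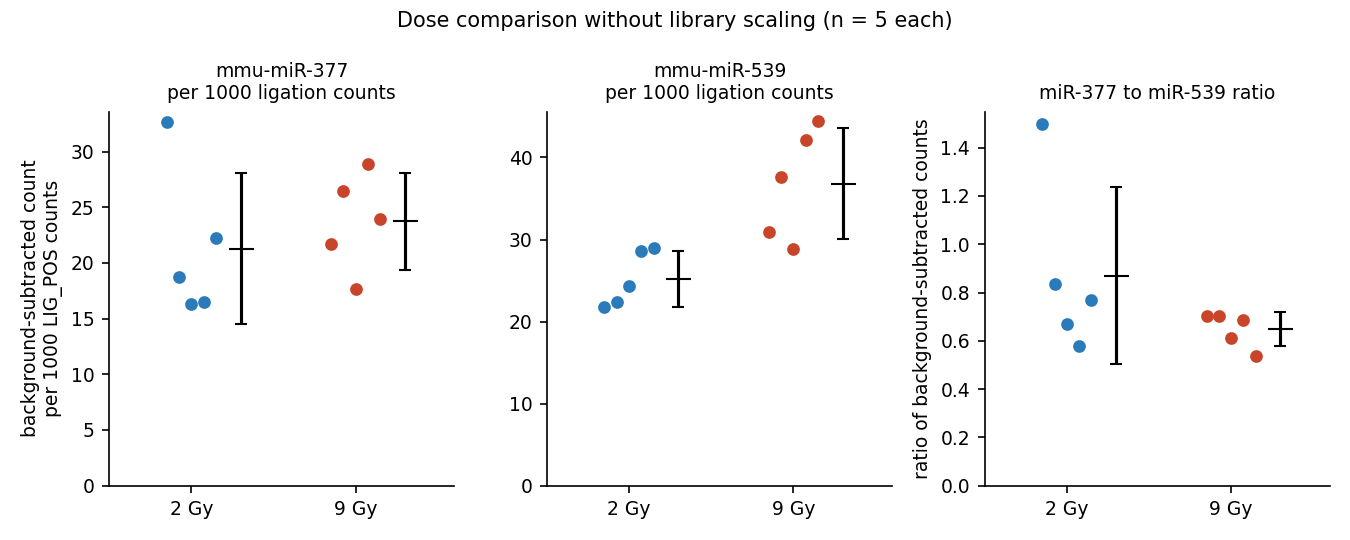
Background-subtracted miR-377 and miR-539 per 1000 ligation control counts, and the ratio of miR-377 to miR-539, in each of the 5 samples at 2 Gy and at 9 Gy, with the mean and SD as bars. The miR-539 ranges meet at 28.9 (2 Gy) and 28.8 (9 Gy), and 2 Gy replicate 1 stands alone at a miR-377 to miR-539 ratio of 1.5.

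The probes of the genes directly beside Mir539 and Mir377 had group means of 2.6 to 16.25 counts. Just before Mir539 lie Mir381 and Mir487b, whose probes averaged 8.0, 6.2 and 7.0 counts and 7.5, 6.8 and 7.6 counts (sham, 2 Gy, 9 Gy). Just after it lies Mir544, with 8.0, 11.6 and 15.2 counts. Its log2 fold change over sham was 0.67 ± 0.30 at 2 Gy (adjusted p 0.172, edgeR) and 0.72 ± 0.28 at 9 Gy (adjusted p 0.0684, edgeR), below the threshold at both doses. Mir382, the next gene, had 16.25, 12.4 and 14.4 counts.

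None of the probes beside Mir377 had enough counts to be tested. Mir154 and Mir496a, before it, averaged 4.75, 5.2 and 9.8 counts and 6.0, 3.6 and 3.2 counts. After it, Mir541 averaged 8.5, 9.8 and 10.8 counts, and both arms of Mir409 stayed between group means of 2.6 and 7.2 counts. These means lie at or near the median negative control, a level at which a change of the miRNA may not be detectable.

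Of the other 42 probes of the miR-379/miR-410 cluster, 12 had enough counts to be tested (a mean of at least 10 over the 14 samples). In the edgeR fit 1 of the 12, miR-376a, was higher than sham at either dose, where 13.1% of all tested probes were higher at 2 Gy and 15.9% at 9 Gy (14.8% and 17.0% in either direction). Another, miR-668, was lower at 2 Gy alone (log2 fold change -1.14 ± 0.35 SE, adjusted p 0.0164, edgeR), where 1.7% of all tested probes were lower, and it did not pass in the contrast between the doses. The median log2 fold change of the 12 was 0.01 at 2 Gy and 0.18 at 9 Gy, beside 0.05 and 0.01 over all tested probes. Of the 20 probes for other miRNAs between Dlk1 and Dio3, 7 were tested and 1, miR-136, was higher at either dose, with medians of -0.14 and -0.06. In 9 Gy against 2 Gy, 0 probes of these lists passed, with medians of 0.04 and 0.13 beside 0.03 over all tested probes. The lists were chosen with results of these data known, and both doses share the sham samples.

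**Figure D5:**
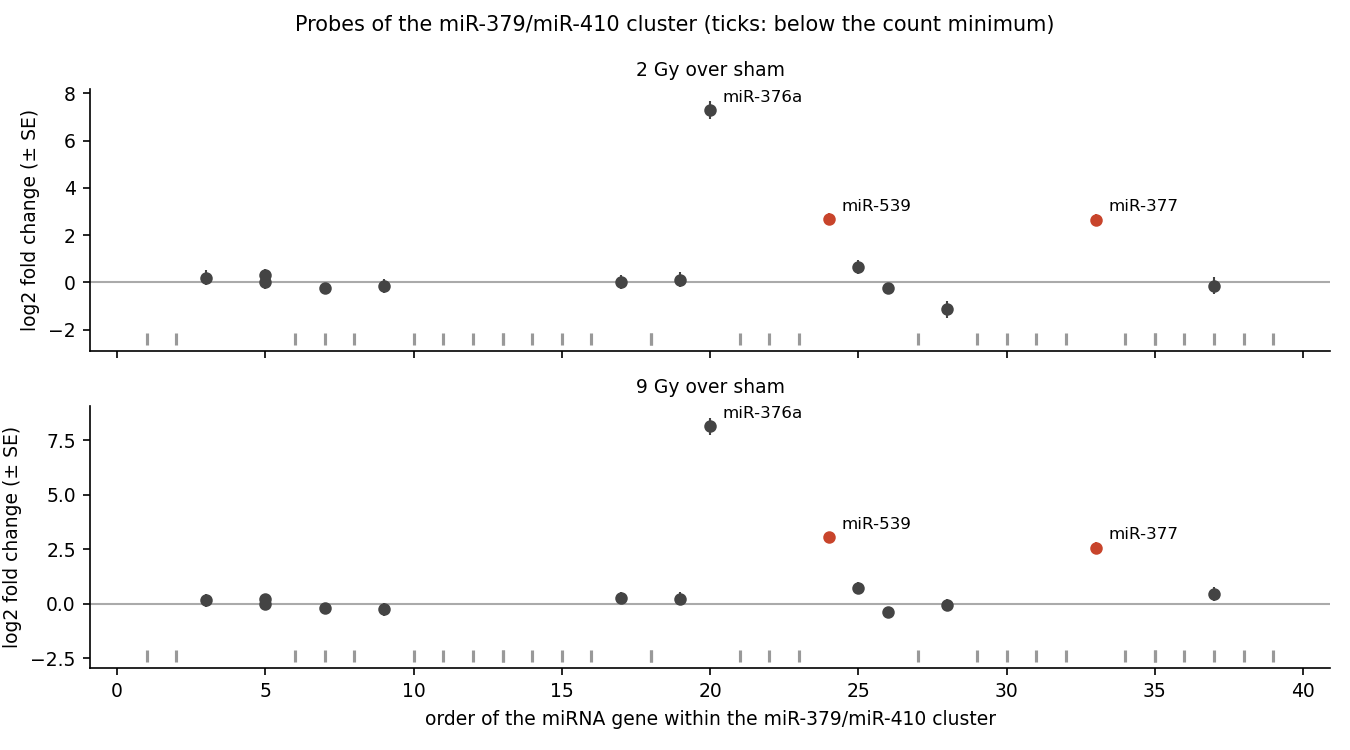
The log2 fold change over sham (bars of 1 SE, edgeR) of the tested probes of the miR-379/miR-410 cluster, in the order of their genes, at 2 Gy (top) and 9 Gy (bottom), with miR-539 and miR-377 in red and ticks for probes below the count minimum. Only miR-376a among the other tested probes lies near or above the red points, and the rest lie between -1.14 and 0.72.

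The miRNAs most like both in pattern were sought over the tested probes, by Pearson's r of log2 scaled counts. Over the 14 samples, miR-377 was most like miR-136 (r 0.970), miR-376a (0.969) and miR-297c (0.963), and miR-539 most like miR-376a (0.980), miR-136 (0.974) and miR-377 (0.958). These values are set by the step from sham to irradiated samples, which chose the pair. With the dose means removed, over the 10 irradiated samples, miR-377 was most like miR-2183 (r 0.884), miR-1839-3p (0.835) and miR-664 (0.787), and miR-539 most like miR-376a (0.912), miR-155 (0.862) and miR-2183 (0.749). miR-155 was listed at 1 count in all samples at 2 Gy, so its likeness comes from the 9 Gy samples. Its counts there ran from 1 to 307 with a mean of 73.4, so 1 sample held most of them. The part of that sample in the r was not tested. The r between miR-377 and miR-539 on this scale was 0.549, which put miR-539 at place 20 for miR-377 and miR-377 at place 21 for miR-539. All these values share 1 scaling factor per sample and are descriptions.

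Among the miRNAs most alike over the 14 samples, miR-297c averaged 8.75 counts for sham, 61.0 for 2 Gy and 88.2 for 9 Gy. miR-376a, from a gene of the same cluster, averaged 20.0 counts for sham, 2817 for 2 Gy and 6414 for 9 Gy, and miR-136, from the same imprinted region, averaged 16.25, 640 and 877 counts. As all these are counts of different probes, their levels are not compared with those of miR-377 and miR-539.

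Markers of blood cells were examined in the same samples, since plasma can carry RNA of other cells. The summed count of 3 red cell miRNAs was 34 to 85 for sham, 29 to 284 for 2 Gy and 27 to 168 for 9 Gy, with medians of 70.5, 168 and 81 counts. These ranges overlapped, and the 2 Gy samples had the highest median. Among the 3, miR-451 had 25 to 71, 21 to 252 and 17 to 138 counts. The sums of 3 platelet and myeloid probes (miR-223 and both arms of miR-126) were 12 to 21, 13 to 32 and 20 to 37. Those of 2 lymphocyte miRNAs were 8 to 15, 10 to 14 and 10 to 317, the last led by miR-155 at up to 307. Most of these sums lie near background, since the median negative control averaged 7.4 to 8.0 counts per probe. The mean highest negative control other than NEG_C was passed by 0, 1 and 0 platelet and myeloid probe means. For lymphocyte probes these numbers were 0, 1 and 1 (sham, 2 Gy, 9 Gy). The liver miRNA miR-122 had at most 6 counts in any sample. The part of these cells in the counts of miR-377 and miR-539 was not tested. The panel holds no marker of vesicles themselves. The 599 miRNA probes together gave 4781 to 6926 counts per sham sample, 8019 to 10455 per 2 Gy sample and 11518 to 20150 per 9 Gy sample. No 2 samples of a group agreed within sampling noise over all probes (26 pairs, chi-square test).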

How the data were processed

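The nCounter assay tags each miRNA by ligation, hybridises it to a barcoded reporter and counts barcodes, with no sequencing or alignment. The deposited values are whole-number counts per probe. The authors' own normalisation was done in nSolver, but the deposited counts still carry their controls and unequal totals, so neither scaling nor background subtraction was applied to them.

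The table was fitted with all 3 groups in 1 model by the quasi-likelihood test of edgeR 4.0.16 (R 4.3.3), with TMM factors over 599 miRNA probes and probes with a mean under 10 counts then left out, which left 176. Tests were two-sided, with Benjamini-Hochberg adjustment over the 176 probes and a threshold of 0.05. Each standard error was the fitted log2 value over the root of its F statistic, and intervals of folds use it with the t distribution at the residual degrees of freedom. Counts divided by the relative TMM-adjusted library size are called scaled counts. Background was each sample's median negative control, with a floor of 1 after subtraction. The ligation level was the geometric mean of 3 LIG_POS probes. Ratios between doses were tested by exact permutation, and correlations by 100000 permutations within dose. Likeness was Pearson's r on log2(scaled count + 1), and the 3 most alike probes of each miRNA were named. The text names both miRNAs, miR-376a, miR-136, the 2 miRNA genes on either side of each, and passing members of both lists, while miR-122 and miR-155 were named after their values were seen. The model was tested on simulated data. Poisson intervals are 95% and cover counting error only. DESeq2 1.42.0, limma-voom (limma 3.58.1), other filters, scalings, a replicate block and each sample left out were alternatives. Sequences and gene order are from RefSeq GRCm38.p6. The members, lists and tests were chosen with earlier results of these data known. Same-numbered 2 Gy and 9 Gy samples did not deviate together (r -0.0760 to 0.176) and were not treated as pairs.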

Additional observations from a re-analysis of the deposited data

Results flagged for a closer look

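In 24 groups of samples examined for 1 value far from the others, 3 stood out, where chance gives about 1 in 20. The miR-377 count of 110 in 2 Gy replicate 1 stood apart from the other 2 Gy samples, with its gap to the next sample at 0.826 of the group's range. The ratio of background-subtracted miR-377 to miR-539 in the same sample, 1.5, stood apart with a gap of 0.719 of the range. In sham replicate 1 that ratio was 4.0, with a gap of 0.915 of the range, and its miR-539 value is at the floor of 1. The ligation controls of 2 Gy replicate 1 were the highest of their group at 3121, and the part of ligation in its miR-377 count was not tested.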

How the results depend on the processing

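Over sham, the log2 fold change moved by more than the spread between replicates under 5 settings for miR-377 at 9 Gy, 4 for miR-377 at 2 Gy and 3 for miR-539 at either dose. With total count scaling it was 1.92 and 1.54 for miR-377 and 1.98 and 2.00 for miR-539 at 2 Gy and 9 Gy. With scaling to the ligation controls it was -0.48 and -0.37 for miR-377 and -0.46 and 0.018 for miR-539. With the median negative control subtracted it was 4.39 and 4.40 for miR-377 and 4.19 and 4.66 for miR-539. With the ligation level as a covariate it was 1.47 ± 0.69 and 1.33 ± 0.71 for miR-377 and 2.64 ± 0.62 and 2.99 ± 0.66 for miR-539 (SE). Scaling to the hybridisation controls gave 2.63 and 2.78 for miR-377 and 2.67 and 3.26 for miR-539. With single samples left out it ran from 2.35 to 2.76 and 2.50 to 2.64 for miR-377, and 2.49 to 2.79 and 2.84 to 3.14 for miR-539.

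For 9 Gy against 2 Gy, miR-377 changed sign, passing no threshold, under scaling to the hybridisation controls (0.15, adjusted p 0.703), scaling to the ligation controls (0.11, adjusted p 0.960), subtraction of the median negative control (0.013, adjusted p 0.961) and without 2 Gy replicate 1 (0.22). Leaving out 1 sample gave -0.19 to 0.22, and the lowest value was -0.38 with total count scaling (adjusted p 0.212). miR-539 ran from 0.03 (total count) to 0.59 (hybridisation controls, adjusted p 0.0793), and from 0.23 to 0.43 with 1 sample left out. The replicate block gave -0.03 for miR-377 (adjusted p 0.981) and 0.33 for miR-539 (adjusted p 0.428), and 0 of 5 samples correlated best with their own number. Calls over all probes, 26, 30 and 0 for 2 Gy and 9 Gy over sham and for 9 Gy against 2 Gy, were 106, 145 and 7 with total count scaling and 9, 10 and 1 with a mean of at least 30 counts. Scaling to the ligation controls gave 169 and 167 over sham, the ligation covariate 3 and 3, limma-voom 17 at 2 Gy, and DESeq2 19 at 9 Gy. Between the doses, scaling to the hybridisation controls gave 12, background subtraction 3, the replicate block 3 and single samples left out 0 to 3. The cause of these moves was not tested.

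With 1 sample left out, the log2 ratio of miR-539 to ligation ran from 0.46 to 0.62, and its exact permutation p adjusted over 3 tests was no longer under 0.05 in 8 of 10 cases (0.0952). The smallest possible exact p is 0.0159 with 5 against 4 samples. The log2 ratio of miR-377 to ligation ran from 0.10 to 0.36 and that of miR-377 to miR-539 from -0.48 to -0.13. The correlations ran from 0.597 to 0.846 for miR-377 with ligation, from 0.478 to 0.747 for miR-539 with ligation and from 0.590 to 0.815 for both miRNAs. Without 2 Gy replicate 1 or without 9 Gy replicate 5, no correlation kept an adjusted permutation p under 0.05 (0.155, 0.146 and 0.106 without the first, at r 0.597, 0.712 and 0.815, and 0.0921, 0.217 and 0.0544 without the second, at r 0.783, 0.478 and 0.758), so several r stayed as large with fewer samples. The test of each ligation ratio over all tested probes and the folds per ligation count without a sham sample were chosen after seeing the data.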
